A study of Mus musculus with 2 samples.

Results

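The epidermal growth factor (EGF) receptor system of the mouse cornea was described through 9 genes, chosen by name out of the 20198 genes of the deposited count table: the ligand genes *Areg*, *Ereg*, *Hbegf*, *Epgn*, *Tgfa*, *Btc* and *Nrg1*, the receptor gene *Egfr*, and the inhibitor gene *Errfi1*. Corneas of male mice aged 6 to 8 weeks, whose strain is not given in the sources used here, were dissociated and sequenced as single cells on the 10x Genomics droplet platform. One library (UW) held unwounded corneas, and the other (W) was made 24 h after the central epithelium inside a trephine mark of 2.5 mm had been scraped off. For wounding, the study's methods also name pentobarbital anaesthesia, procaine on the eye, fluorescein staining of the wound and the antibiotic ofloxacin, and these and the wound cannot be told apart here. Each library pooled 8 corneas of 4 mice, and the table used here does not say which cell came from which mouse, so each condition is 1 sample, no test of the wound was possible, and every interval below covers counting error only.

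The receptor binds a family of small growth factors that are made as membrane proteins and cut loose by surface proteases, and its activity drives epithelial cells to migrate and divide. Amphiregulin (*Areg*), heparin-binding EGF-like growth factor (*Hbegf*), epiregulin (*Ereg*), epigen (*Epgn*), transforming growth factor alpha (*Tgfa*) and betacellulin (*Btc*) bind the EGF receptor itself, while neuregulin 1 (*Nrg1*) binds its relatives ErbB3 and ErbB4. *Errfi1* codes for a protein induced by receptor signalling that binds the receptor's kinase domain and shuts it down, and in the cornea the receptor is long known as a driver of epithelial closure after abrasion.

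The UW library held 16450 cells with 367166822 unique molecular identifiers (UMIs, each marking 1 captured RNA molecule) and the W library 12417 cells with 289586482, at medians of 22014 and 20290 UMIs per cell, and 52 cell barcodes occurred in both. The cells carry 17 deposited cluster numbers without names. By their leading genes and fixed marker lists, 10 clusters were epithelial: cluster 9 was limbal-like (*Wfdc18*), 3 basal-like (*Itgb4*, *Lamb3*), 11 S phase-like (*Mcm3*, *Hells*), 8 mitotic-like (*Mki67*, *Top2a*), 1 and 4 suprabasal-like (*Dapl1*; *Dsg1a*, *Krt16*), 6 superficial-like (*Psca*, *Krt78*) and 5 conjunctival-like (*Krt4*, *Krt19*), while 2 and 7 are called by their leading genes *Spink5* and *Lce3a*. Cluster 0 was stromal-like (*Kera*), 13 neutrophil-like (*S100a8*, *S100a9*), 14 and 15 monocyte lineage-like (*C1qa*; *Fcgr1*, *Lyz2*) and 16 T-like (*Cd3d*, *Cd3e*). Clusters 10 (*Penk*, *Myoc*) and 17 stay unnamed, and cluster 10 held markers of both stromal cells and corneal endothelium. Summed over 7 epithelial markers, the epithelial clusters reached 6523 to 57014 UMIs per 1000000 of the cluster's UMIs in that library (CPM) in UW, against 2197 to 2574 in clusters 0 and 10. In W the epithelial clusters reached 10244 to 52772 and clusters 13 to 17 from 2030 to 12680, so the sums of the last overlap the epithelial range. In UW *Psca* was higher in cluster 7 than in 6, at 39970 and 28761 CPM, while *Omp*, *Lypd2* and *Krt78* were higher in 6. Of the limbal list, *Wfdc18* was highest in cluster 9 in both libraries, and *Gpha2* and *Atf3* were in UW. *Krt15* was highest in cluster 5, at 23158 CPM in UW against 3740 in cluster 9. In W *Gpha2* was higher in cluster 0 than in 9, at 4206 and 1412. Clusters 13 to 17 held 0 to 7 cells each in UW, so the libraries were compared in the other 12 clusters, which held at least 50 cells in each.

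*Epgn*, *Ereg*, *Areg* and *Btc* lie within 375 kb of each other on chromosome 5 (RefSeq, GRCm38.p6) with 3 other genes between them, 0 of them protein coding. Their genes span chr5:91027517-91035212, chr5:91074617-91093649, chr5:91139599-91148432 and chr5:91357261-91402994. The promoter sequences below are shown because the 3 of these neighbours with a window in the table went different ways after wounding, and because *Areg* and *Errfi1* were the only 2 of the 6 members with a window that hold a full cyclic AMP response element (CRE). Each line gives the 120 bases before the start site, 5′ to 3′ on the gene's strand, with matches in capitals.

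Epgn, chr5:91027397-91027516, + strand: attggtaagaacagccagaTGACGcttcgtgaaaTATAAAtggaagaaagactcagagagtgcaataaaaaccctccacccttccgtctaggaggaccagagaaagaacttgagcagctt
Areg, chr5:91139479-91139598, + strand: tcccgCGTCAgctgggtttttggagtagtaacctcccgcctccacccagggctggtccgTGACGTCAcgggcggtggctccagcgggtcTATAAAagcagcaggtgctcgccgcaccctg
Btc, chr5:91402995-91403114, - strand: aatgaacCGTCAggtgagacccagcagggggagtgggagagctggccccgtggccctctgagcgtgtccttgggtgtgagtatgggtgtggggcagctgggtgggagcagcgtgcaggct
Errfi1, chr4:150854950-150855069, + strand: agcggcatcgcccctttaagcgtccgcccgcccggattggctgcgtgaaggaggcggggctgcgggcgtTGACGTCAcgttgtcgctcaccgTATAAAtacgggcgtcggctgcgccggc

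The motifs searched on both strands of windows of 250 bases before to 50 after the start site were AP-1 (TGANTCA), CRE (TGACGTCA), its core (TGACG, which also lies inside the full CRE) and the TATA box (TATAAA). *Areg* held TGACGTCA at position -61 and TATAAA at -31, and the second *Errfi1* start held TGACGTCA at -51 and TATAAA at -28. *Epgn* held the core at -101 and TATAAA at -86, and *Btc* only the core, at -113. The full CRE occurred in 1.79% of 32851 mouse promoters of the same length, the core in 20.8%, TATAAA in 13.6% and AP-1 in 7.81%. None of the 6 members' windows held the AP-1 letters searched, and those of *Tgfa* (chr6:86195038-86275744) and *Egfr* (chr11:16752203-16913907) held no match at all.

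In the unwounded cornea the ligand genes overlapped in the epithelium but were not all highest in the same places. With each cell thinned to 5000 UMIs, 55.8% of epithelial cells in UW held at least 2 of the 7. *Areg* and *Ereg* were read highest in conjunctival-like cluster 5. *Nrg1* was read mostly in the basal, cycling and limbal clusters, *Epgn* in suprabasal cluster 1, and *Hbegf*, *Btc* and *Tgfa* toward the surface, while *Egfr* was highest at the base and fell toward the surface. *Errfi1* was highest in the *Lce3a* and superficial-like clusters 7 and 6, the 2 epithelial clusters with the least *Egfr*. After wounding, *Areg* was higher in each of the 12 clusters compared, 2 of which (0 and 10) held it only at a level within the range of free RNA, *Btc* was lower in the upper layers, and *Egfr* was lower at the base.

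**Figure D1:**
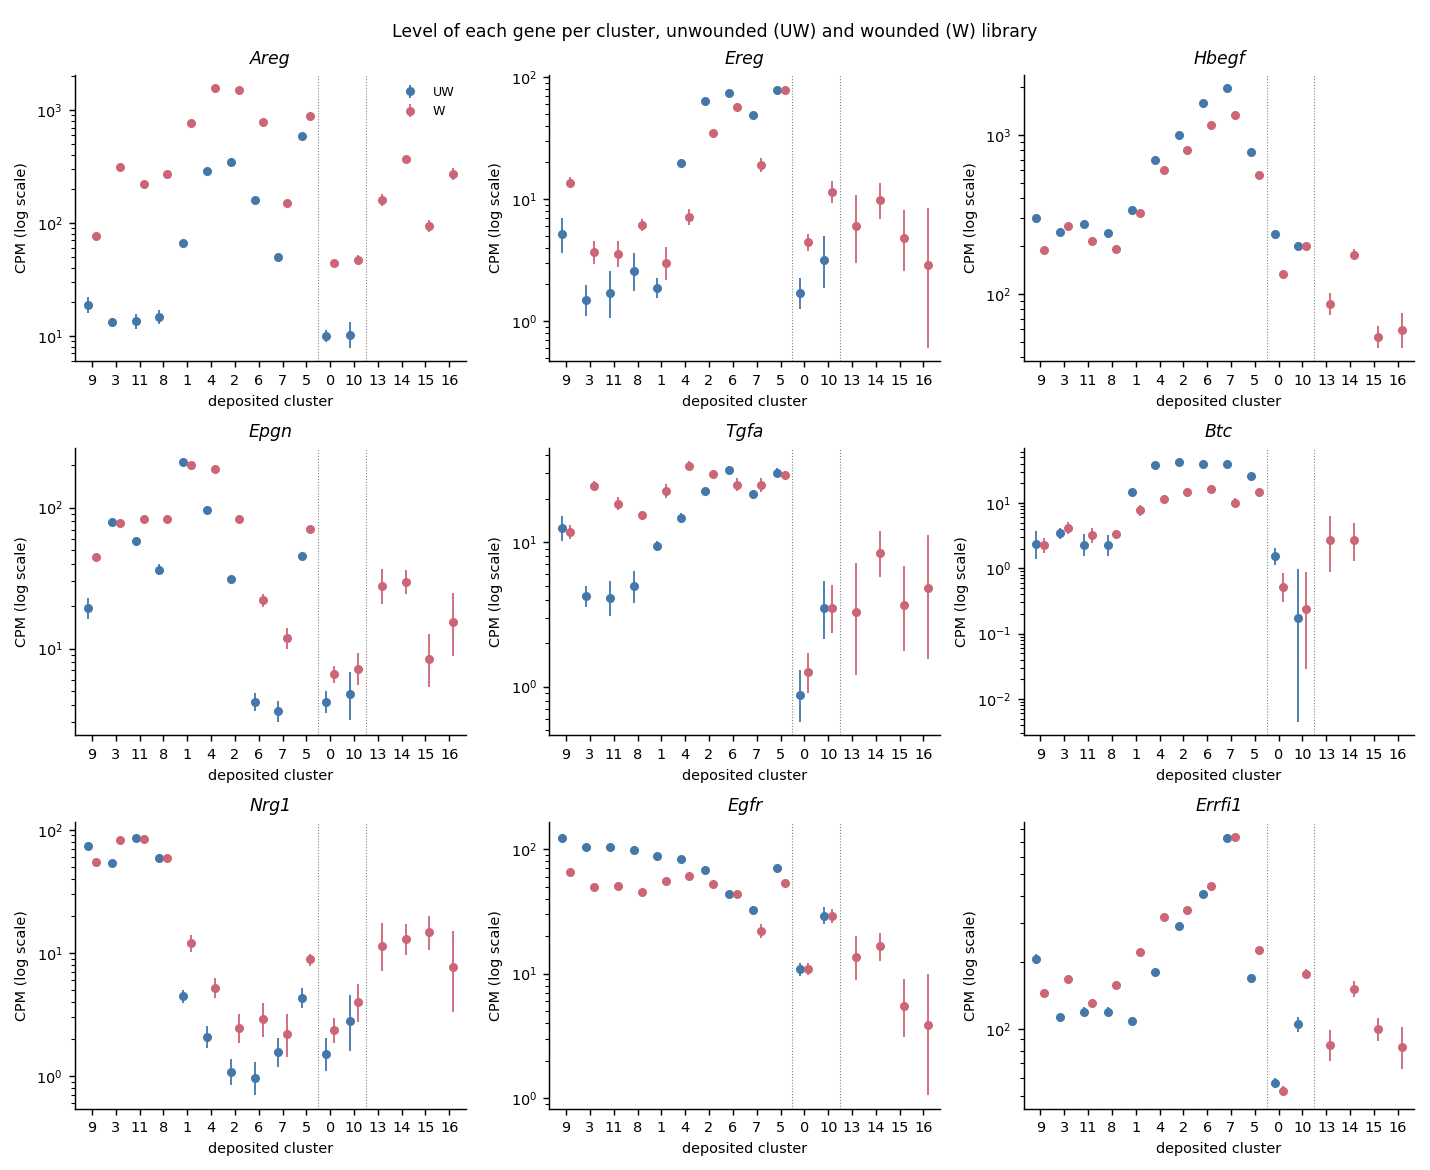
Level of the 9 genes in CPM (log axis) per deposited cluster with at least 50 cells, in the UW (blue) and W (red) library, with exact Poisson 95% intervals; dotted lines part epithelial clusters (left, from limbal and basal to superficial, then conjunctival) from clusters 0 and 10 and from immune clusters, and sums of 0 are not drawn. The *Areg* points of W lie above those of UW in each of the 12 clusters with both libraries (in clusters 0 and 10 within the range of free RNA), and *Nrg1* stands at 53.8 to 86.2 CPM in UW in clusters 3, 8, 9 and 11 and below 5 CPM in the others.

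Of 108 pairs of a member and a cluster, 107 held at least 20 UMIs over both libraries, and of these 33 (30.8%) were at least 2-fold higher in W and 10 (9.35%) at least 2-fold lower. Over the same 12 clusters, 12.7% of all 150063 gene and cluster pairs with 20 UMIs were at least 2-fold higher and 9.8% lower, so the share of higher pairs stood above the background and the share of lower pairs close to it. *Areg* alone gave 11 of the 33 higher pairs, 2 of them in clusters 0 and 10, and it was the only one of the 9 genes past 2-fold in more than 6 clusters in 1 direction. In the basal-like and cycling clusters, 3 of 9 members were at least 2-fold higher in cluster 3 where 15.1% of all genes were, 3 in cluster 11 (12.7%) and 4 in cluster 8 (10.8%), and the limbal-like cluster 9 had 3 (9.12%). Above them, 4 members were higher in cluster 1 (14.7%), 3 in cluster 4 (13.8%), 3 in cluster 2 (13.2%), 3 in cluster 6 (17.2%) and 2 in cluster 7 (23.2%), while the conjunctival-like cluster 5 had 1 (12.7%). In cluster 0 there were 2 (7.34%) and in cluster 10, where 8 members held 20 UMIs, also 2 (4.97%). Lower members numbered 1 in cluster 3 (background 11.1%), 1 in 11 (9.33%), 1 in 8 (9.58%), 1 in 2 (13.1%), 1 in 6 (9.58%), 1 in 0 (9.67%), 2 in 4 (13.5%) and 2 in 7 (6.48%), and 0 in 1 (11%), 5 (7.47%), 9 (9.76%) and 10 (6.63%). The median log2 ratio of W over UW of all genes tested ran from -0.15 in cluster 0 to 0.26 in cluster 7, and TMM factors moved every ratio of a cluster by -0.38 (cluster 7) to 0.14 (cluster 0). Median-of-ratios factors moved them by -0.41 to 0.17 in the same 2 clusters.

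**Figure D2:**
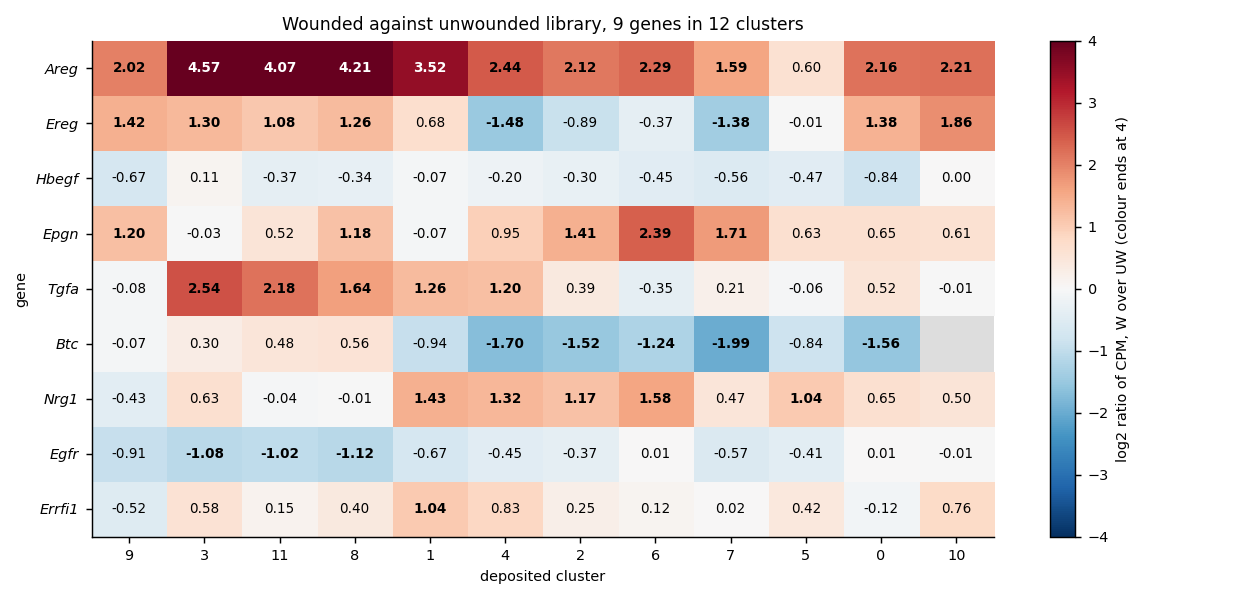
Log2 ratio of CPM, W over UW, for each of the 9 genes (rows) in the 12 clusters compared (columns); bold marks at least 2-fold with at least 20 UMIs, and grey a sum under 20 UMIs. The *Areg* row runs from 0.60 in cluster 5 to 4.57 in cluster 3, the *Hbegf* row stays within 2-fold throughout, and the *Ereg* row holds ratios past 2-fold in both directions.

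*Areg*, the amphiregulin gene, had its lowest epithelial levels without a wound in the basal-like and cycling clusters and its highest ratios of W over UW there. The gain in CPM was larger in layers above, such as from 290 to 1576 in suprabasal-like cluster 4. In basal-like cluster 3 it rose from 13.2 CPM in UW (95% interval 11.97 to 14.48) to 314 in W (307 to 321), a log2 ratio of 4.57 (4.43 to 4.72). In mitotic-like cluster 8 it went from 14.7 to 272 CPM and in S phase-like cluster 11 from 13.4 to 224, log2 ratios of 4.21 and 4.07. The limbal-like cluster 9 moved less, from 18.9 (15.9 to 22.3) to 76.7 CPM (73.3 to 80.2), a log2 ratio of 2.02. In UW these levels were 6.98% of the pooled epithelial level in cluster 3, 7.78% in 8, 7.09% in 11 and 10.0% in 9, inside the range of 4.36 to 11.2% that free RNA of abundant epithelial genes gave in stromal-like cells, so *Areg* expression without a wound is not shown for these 4 clusters and their ratios are those of the levels read. In W the shares were 48.9%, 42.4%, 34.9% and 11.9%, against 4.40 to 9.24%. The intervals of the unwounded levels in clusters 3, 8, 11 and 10 overlapped each other, and these levels lay near the 9.95 CPM of the stromal-like cluster 0.

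In the layers above, *Areg* was already abundant without a wound. Suprabasal-like cluster 1 held 66.6 CPM in UW and 764 in W, and suprabasal-like cluster 4 held 290 and 1576. In the *Spink5* cluster 2 the values were 346 and 1507 CPM, and in superficial-like cluster 6 they were 159 and 781. The *Lce3a* cluster 7 stood lower, at 49.7 and 150 CPM. The conjunctival-like cluster 5, which had the highest unwounded level at 590 CPM (581 to 599), moved least, to 892 (883 to 902), and was the one cluster under 2-fold with a log2 ratio of 0.60 (0.57 to 0.62). The order of the clusters thus changed from 5, 2, 4 and 6 at the top in UW to 4, 2, 5 and 6 in W, with no overlap of intervals among the first 4 in either library.

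Ranked by log2 ratio, *Areg* was number 56 of 13086 genes in mitotic-like cluster 8, 111 of 12107 in S phase-like cluster 11 and 164 of 12845 in basal-like cluster 3. In conjunctival-like cluster 5 it ranked 2835 of 12830. With every cell thinned to 5000 UMIs, 6.91% of basal-like cells in UW held an *Areg* UMI (5.75 to 8.22) and 47.9% in W (44.5 to 51.3), while without thinning the shares were 17.7% and 83.1% at medians of 18682 and 23906 UMIs per cell. In the stromal-like cluster 0, which should lack epithelial transcripts, 4.62% of thinned UW cells and 19.4% of W cells held an *Areg* UMI, at unthinned medians of 11853 and 17588 UMIs. Within basal-like W cells the gene was spread unevenly, with 59.3% of its UMIs in the 10% of cells with the most and up to 166 in 1 cell.

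Free RNA from epithelial cells gives UMIs in other cells, and 10 abundant epithelial genes were used to gauge it. In cluster 0 they stood at 4.36 to 11.2% of their pooled epithelial level in UW and at 4.40 to 9.24% in W. *Areg* stood at 5.27% and 6.91%, inside both ranges, and in cluster 10 likewise at 5.38% and 7.33%, so its more than 2-fold higher level in these 2 clusters (9.95 to 44.4 and 10.2 to 47.1 CPM) lay within what free RNA can give and is not reported as expression. The highest value in a single cell of cluster 0 was 2 *Areg* UMIs in UW and 54 in W. In W, *Areg* in the monocyte lineage-like cluster 14 reached 366 CPM (347 to 386), 57.0% of the epithelial level where the 10 genes reached 23.7 to 51.5%, and 85.7% of its UMIs came from the 10% of cells with the most. In T-like cluster 16 it reached 274 CPM (243 to 308), 42.7% against 10.5 to 31.2%, and in cluster 15 94.8 CPM, 14.8% against 6.03 to 11.7%. In cluster 13 the 160 CPM lay inside the range. T-like cells of UW, only 7 in all, held 6 *Areg* UMIs.

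*Hbegf*, the gene of heparin-binding EGF-like growth factor, was at least 2-fold changed in 0 of the 12 clusters. Its level climbed toward the surface in both libraries, from 247 CPM in UW and 266 in W in basal-like cluster 3 to 1586 and 1158 in superficial-like cluster 6 and 1975 and 1344 in the *Lce3a* cluster 7. The ratio was below 0 in 10 of 12 clusters, also under TMM and median-of-ratios scaling, and ran from -0.84 in cluster 0 (-0.89 to -0.78) to 0.11 in cluster 3 (0.06 to 0.16). With the lowest ratio, the stromal-like cluster 0 went from 237 CPM to 133, which at 27.4% and 27.6% of the epithelial level stood above the range of the free RNA genes in both libraries. Nearly all cells of cluster 7 held the transcript, 97.9% of thinned cells in UW and 94.0% in W.

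*Ereg*, coding for epiregulin, was the one member that passed 2-fold in both directions. It was highest in the conjunctival-like cluster 5, where it did not move (78.7 CPM in UW and 78.3 in W, log2 ratio -0.01 with an interval of -0.09 to 0.08), followed by superficial-like cluster 6 (74.1 and 57.2) and the *Spink5* cluster 2 (64.2 and 34.7). It was lower in W in suprabasal-like cluster 4, from 19.9 CPM to 7.15, and in the *Lce3a* cluster 7, from 49.1 to 18.9. In the limbal-like cluster 9 it was higher, from 5.12 CPM (3.64 to 7.001) to 13.7 (12.2 to 15.2), and it was more than 2-fold higher in clusters 3, 8, 11, 0 and 10 as well, although at no more than 11.4 CPM. The mean of each cell's own CPM left clusters 3, 8 and 11 under 2-fold. In UW these 3 clusters stood at 4.10%, 7.08% and 4.65% of the pooled epithelial level, no higher than free RNA, and in W at 15.4%, 25.8% and 14.9%. In W, *Ereg* in clusters 0 and 10 stood at 18.5% and 47.9% of its epithelial level, above the range of the free RNA genes, and in UW at 4.63% and 8.65%, inside it. These W levels came from few cells, with 143 UMIs in 69 cells and 95 in 36, and up to 14 and 18 in 1 cell. Unthinned cells with an *Ereg* UMI went from 1.98% (1.46 to 2.63) to 4.01% (3.14 to 5.05) in cluster 0. In cluster 10 they went from 3.01% (1.76 to 4.77) to 5.70% (4.02 to 7.80), with overlapping intervals. Of all *Ereg* UMIs of the W library, 47.1% came from conjunctival-like cells, which were 9.67% of its cells, against 17.4% from 6.69% of the cells in UW.

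*Epgn*, the epigen gene, belonged to suprabasal-like cluster 1 in the unwounded cornea, which held 50.1% of its UMIs in 14.96% of the cells. The level there hardly differed between the libraries, at 210 CPM in UW (206 to 214) and 201 in W (193 to 208), a log2 ratio of -0.07 (-0.13 to -0.01). In the clusters above it the gene was higher in W, from 31.1 to 82.9 CPM in the *Spink5* cluster 2, from 4.20 to 22.1 in superficial-like cluster 6 and from 3.61 to 11.8 in the *Lce3a* cluster 7. In clusters 6 and 7 these were 5.98% and 5.14% of the pooled epithelial level in UW, inside the range of free RNA, and 25.6% and 13.7% in W, above it. The limbal-like and mitotic-like clusters also passed 2-fold, at 19.3 to 44.4 and 36.3 to 82.5 CPM (cluster 9 not by the mean of each cell's own CPM), and the second suprabasal-like cluster 4 came just short of it, at 97.1 to 187 CPM with a log2 ratio of 0.95 (0.89 to 1.01). Basal-like cluster 3 stood at 79.2 and 77.8 CPM, with overlapping intervals.

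*Tgfa*, coding for transforming growth factor alpha, gained in the epithelial clusters that had held the least of it. The basal-like cluster 3 went from 4.21 CPM in UW (3.54 to 4.97) to 24.5 in W (22.5 to 26.6), S phase-like cluster 11 from 4.08 to 18.4 and mitotic-like cluster 8 from 4.92 to 15.4. Both suprabasal-like clusters passed 2-fold too, at 9.39 to 22.5 and 14.7 to 33.8 CPM. The 4 clusters with the highest unwounded level, 6, 5, 2 and 7, stood between 21.4 and 31.7 CPM in UW and between 24.8 and 29.4 in W, so that in W the intervals of each pair of neighbours overlapped from cluster 4 at the top down to cluster 11. Limbal-like cluster 9 did not follow the other basal clusters, with 12.5 CPM in UW and 11.8 in W.

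*Btc*, the betacellulin gene, was, of the 7 ligand genes among the members, the one lower past 2-fold in the most clusters, 5 of the 11 with at least 20 UMIs. In the *Spink5* cluster 2 it fell from 42.1 CPM (40.5 to 43.8) to 14.6 (13.1 to 16.3), in suprabasal-like cluster 4 from 37.6 to 11.6 and in superficial-like cluster 6 from 39.3 to 16.7. The *Lce3a* cluster 7 showed the lowest ratio, with 39.6 and 9.96 CPM and a log2 value of -1.99 (-2.27 to -1.72), and ranked 131 from the lowest of 10741 genes. Cluster 0 also passed 2-fold, at 1.55 and 0.524 CPM, inside the range of free RNA in both libraries. In the basal-like, limbal-like and cycling clusters the level was 2.25 to 4.21 CPM in both libraries and each interval of the ratio included 0, while cluster 10 held 1 and 2 UMIs and got no ratio. Thinned cells with a *Btc* UMI went from 18.8% (17.1 to 20.7) to 6.70% (5.14 to 8.55) in cluster 2.

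*Nrg1*, the neuregulin 1 gene, was, within the epithelium, mainly a transcript of the basal-like, cycling and limbal-like clusters. In UW it reached 86.2 CPM in S phase-like cluster 11, 73.9 in limbal-like cluster 9, 59.0 in mitotic-like cluster 8 and 53.8 in basal-like cluster 3, and the next cluster stood at 4.45. In W these were 83.5, 54.7, 58.6 and 83.1 CPM, so that of the 4 only the basal-like cluster was higher, by 0.63 on the log2 scale (0.53 to 0.72), and the limbal-like cluster was lower, with a log2 ratio of -0.43 (-0.58 to -0.29). The 5 clusters past 2-fold were those with little of it, at 0.965 to 4.45 CPM in UW and 2.45 to 11.96 in W (clusters 1, 2, 4, 5 and 6), of which cluster 5 fell under 2-fold with a stricter filter on cells. In clusters 2 and 6 these levels were 7.51% and 6.66% of the pooled epithelial level of *Nrg1* in UW and 6.89% and 8.13% in W, shares like those of the free RNA genes in cluster 0 (4.36 to 11.2% and 4.40 to 9.24%), and the part of free RNA in these 2 ratios was not tested. The 4 clusters with the most *Nrg1* took other shares of the cells in W, with cluster 8 at 3.25% of UW and 10.7% of W cells, cluster 9 at 3.17% and 7.70%, cluster 11 at 3.72% and 4.53%, and cluster 3 at 10.9% and 7.13%. Outside the epithelium, *Nrg1* in monocyte lineage-like cluster 15 of W reached 14.8 CPM (40 UMIs). This was 41.6% of its epithelial level, where the free RNA genes gave 6.03 to 11.7%. In clusters 13, 14 and 16 it lay inside their range.

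*Egfr*, the receptor gene, was lower in W in the cells that had the most of it. The limbal-like cluster 9 held 123 CPM in UW (115 to 131) and 65.1 in W (62.0 to 68.4), basal-like cluster 3 105 and 49.4, S phase-like cluster 11 104 and 51.0, and mitotic-like cluster 8 98.7 and 45.6. Clusters 3, 8 and 11 passed 2-fold, with log2 ratios of -1.08 (-1.18 to -0.98), -1.12 (-1.22 to -1.01) and -1.02 (-1.14 to -0.90), (cluster 11 not with a stricter filter on cells), and cluster 9 came close at -0.91 (-1.03 to -0.80). The suprabasal-like clusters went from 88.9 to 55.8 and from 83.6 to 61.1 CPM. Superficial-like cluster 6 stood at 43.4 and 43.7, with overlapping intervals. The range from base to surface was smaller in W, where the *Lce3a* cluster 7 held 22.0 CPM and the other 9 epithelial clusters lay between 43.7 and 65.1, against 32.8 in cluster 7 and 43.4 to 123 in the others in UW. Of thinned basal-like cells, 41.2% held an *Egfr* UMI in UW (38.8 to 43.5) and 24.2% in W (21.3 to 27.2). In cluster 10 *Egfr* stood at 29.2 and 29.1 CPM, above the free RNA range in both libraries.

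*Errfi1*, the gene of the receptor's feedback inhibitor, was higher in the surface clusters in UW, as *Hbegf* was, with 113 CPM in basal-like cluster 3 against 406 in superficial-like cluster 6 and 728 in the *Lce3a* cluster 7. It passed 2-fold in suprabasal-like cluster 1 only, from 108 CPM (106 to 111) to 224 (216 to 231), a log2 ratio of 1.04 (0.98 to 1.11) that was under 2-fold with TMM or median-of-ratios scaling and with a stricter filter on cells. In suprabasal-like cluster 4 it was 180 and 320 CPM and in basal-like cluster 3 113 and 169. In cluster 7 it stood at 728 and 739 with overlapping intervals, and in limbal-like cluster 9 it was lower, at 208 and 145. Cluster 10 went from 105 to 178 CPM, 39.6% and 71.0% of the epithelial level, above the range of the free RNA genes.

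Pooled over the epithelium, a gene can move because its level within clusters changes or because the shares of the clusters change, and these were set apart by giving W the cluster shares of UW. *Areg* was higher by 1.77 pooled and by 2.17 on the log2 scale at UW shares (189 to 850 CPM). *Nrg1* was higher by 1.29 pooled but by 0.42 at UW shares, which leaves 0.87 to the cluster shares. This split depends on the weights, since within clusters *Nrg1* was higher by 0.091 at the W shares and by 0.13 at equal shares. *Hbegf* stood at -0.85 pooled and -0.37 at UW shares. *Errfi1* changed sign, from -0.09 pooled to 0.31. *Btc* was at -1.71 and -1.35 and *Egfr* at -0.54 and -0.58. *Epgn* and *Tgfa* stood at 0.29 and 0.37 pooled and at 0.48 and 0.56 at UW shares, and *Ereg* at -0.61 and -0.56. Since genes that define the clusters differ between the libraries, the shares are a description.

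**Figure D3:**
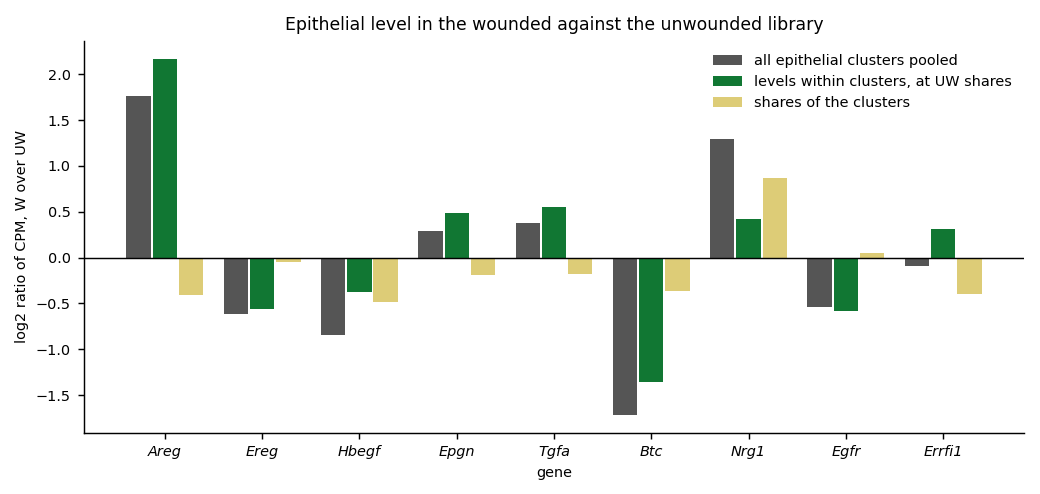
Log2 ratio of CPM, W over UW, over the 10 epithelial clusters for each of the 9 genes: pooled (grey), with levels weighted by the clusters' UMI shares in UW (green), and the difference of both, which is the part of the cluster shares (yellow). *Areg* stands highest at 1.77 and 2.17, the *Nrg1* bar shrinks from 1.29 to 0.42 at UW shares, and *Btc* is lowest at -1.71 and -1.35.

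Thinned to 1 depth, more epithelial cells of W held several ligand genes side by side. With each cell thinned to 5000 UMIs, 55.8% of 13134 epithelial cells in UW held UMIs of at least 2 of the 7 ligand genes (54.9 to 56.6) and 63.9% of 8331 in W (62.9 to 65.0), with 367 and 176 shallower cells left out. Cells with *Areg* went from 33.2% to 59.2% and cells with *Hbegf* from 78.4% to 69.9%, while cells with 0 ligand genes made up 9.34% and 9.54%. In the basal-like cluster 3 the share with at least 2 went from 29.8% (27.6 to 32.0) to 58.5% (55.1 to 61.8), and in superficial-like cluster 6 from 70.1% to 85.0%. Without thinning the share in cluster 3 went from 72.8% to 95.5%, but in cluster 6 it was 96.6% in both libraries, with at least 3 ligand genes in 86.7% of UW and 72.4% of W cells at medians of 26510 and 20913 UMIs. The unthinned mean number of ligand genes per cell was also lower in W in clusters 2, 4 and 7, for example 4.21 and 3.70 in cluster 2. In conjunctival-like cluster 5 (74.1% and 72.2%) and in the *Lce3a* cluster 7 (48.5% and 50.9%) the intervals of both libraries overlapped. Basal-like cells with both an *Areg* and an *Egfr* UMI made up 2.63% in UW (1.93 to 3.51) and 12.4% in W (10.2 to 14.8), although the share with *Egfr* was smaller in W. In the stromal-like cluster 0, at least 2 ligand genes were found in 5.35% of UW and 13.2% of W cells.

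**Figure D4:**
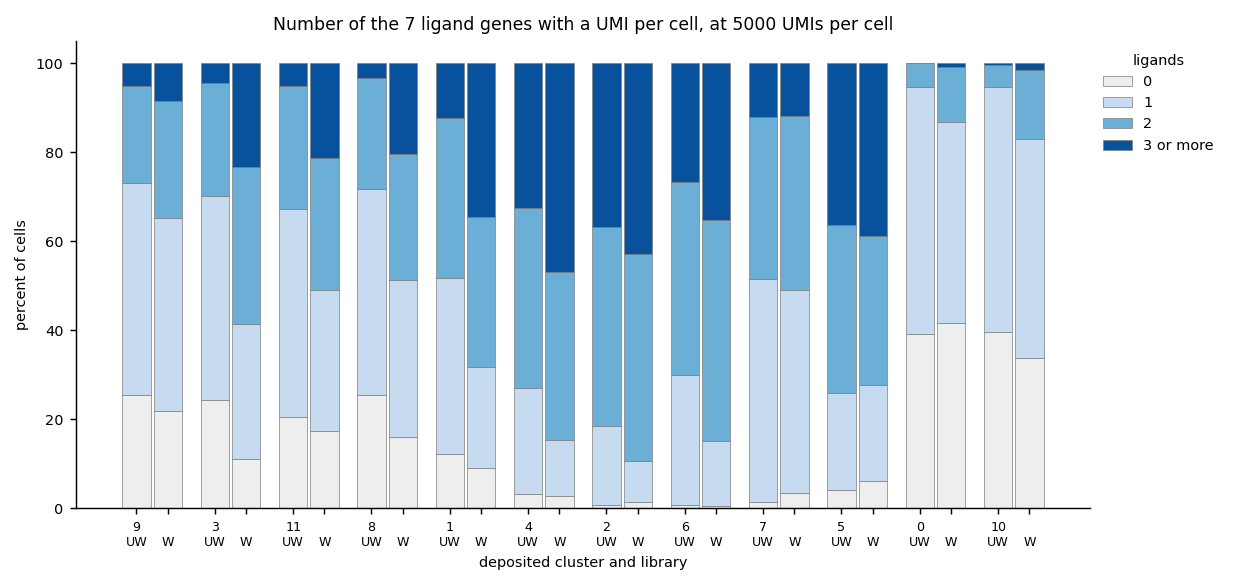
Share of cells (percent) with UMIs of 0, 1, 2 or at least 3 of the 7 ligand genes, each cell thinned to 5000 UMIs, per cluster and library; the bars of each pair are UW (left) and W (right). Cells with at least 3 ligand genes (dark blue) rise from 4.45% to 23.2% in cluster 3 and from 3.33% to 20.3% in cluster 8, and make up 36.3% and 38.8% in cluster 5.

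Of the other genes of the pathway, 51 of the 52 on the list were in the table, and *Nrg3* was not analysed here. Among the 8 genes that receptor signalling is known to raise, 31 of 93 pairs with at least 20 UMIs (33.3%) were at least 2-fold higher, against 12.7% of all pairs, and 5 (5.38%) lower, against 9.8%. Higher genes numbered 6 of 8 in suprabasal-like cluster 4 (13.8% of all genes there) and 4 of 8 each in clusters 1 (14.7%), 2 (13.2%), 0 (7.34%) and 10 (4.97%), and a difference between clusters was not tested. The part of free RNA in the pathway genes of clusters 0 and 10 was not gauged. In mitotic-like cluster 8, 0 of 8 were higher (10.8% of all genes) and 1 lower (9.58%), and in limbal-like cluster 9, 0 were higher (9.12%) and 2 lower (9.76%), counts close to the background, at median log2 ratios of -0.23 and -0.63. In S phase-like cluster 11 there were 1 higher (12.7%) and 1 lower (9.33%), at a median of -0.25. The medians of all genes in these 3 clusters were -0.04, -0.06 and 0.04. *Plaur*, the urokinase receptor gene, was above 0 in 12 of 12 clusters under each scaling and passed 2-fold in 8, for example from 6.51 to 72.4 CPM in suprabasal-like cluster 4. *Myc*, a growth regulator, passed 2-fold in 6 clusters, from 1.52 to 18.9 CPM in superficial-like cluster 6 but from 145 to 84.1, within 2-fold, in limbal-like cluster 9. *Phlda1* passed in clusters 1, 3 and 4, from 328 to 1201 CPM in cluster 4. *Ier3* went the other way, at least 2-fold lower in 4 clusters, with 980 and 319 CPM in cluster 9.

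Among the 16 receptor and pathway inhibitors, 14 of 187 pairs (7.49%) were at least 2-fold higher and 8 (4.28%) lower, a smaller share than that of all pairs in both directions. All but 1 of the higher pairs came from 2 phosphatase genes that act on ERK. *Dusp5* passed in clusters 1, 2, 3, 4, 8 and 11, from 84.1 to 460 CPM in cluster 4 and from 25.7 to 79.7 in cluster 3, and *Dusp4* passed in 7 clusters at no more than 5.01 CPM. *Lrig1*, a membrane protein that promotes loss of the receptor, was at least 2-fold lower in clusters 2 and 4, with 30.2 and 13.2 CPM in cluster 4. *Cbl*, a ubiquitin ligase of the receptor, was lower past 2-fold in cluster 11 alone, at 52.5 and 26.1 CPM.

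Of the 26 pairs of the related receptor genes, 0 were higher past 2-fold and 3 (11.54%) lower, close to the 9.8% of all pairs. *Erbb3* stood between 54.1 and 131 CPM in the epithelial clusters of UW and passed 2-fold in superficial-like cluster 6, at 131 and 63.1. *Erbb4* held 20 UMIs in clusters 0 and 10 only, with 25.5 and 4.93 CPM in cluster 0 (log2 ratio -2.37, -2.63 to -2.12). *Erbb2* did not pass 2-fold in any of the 12 clusters, with ratios from -0.31 to 0.63. Of the 22 pairs of the other ligand genes, 2 (9.09%) were higher past 2-fold and 8 (36.4%) lower, against 12.7% and 9.8% of all pairs. *Egf* itself was read at no more than 4.79 CPM and was lower past 2-fold in 7 of 10 clusters, at 4.79 and 1.67 in cluster 1. *Nrg2* was higher past 2-fold in 2 clusters and lower in 1, and *Nrg4* held 20 UMIs in 0 clusters. Of the 48 pairs of the 4 genes for shedding of the ligands, 2 were higher past 2-fold and 3 lower, both shares under those of all pairs. *Adam17*, the main protease of *Areg*, *Hbegf* and *Tgfa* products, was below 0 in 12 of 12 clusters by CPM and in 10 of 12 by TMM, and within 2-fold by CPM in each. *Adam10*, which cuts the *Btc* product, was below 0 in 12 of 12 under each scaling and passed 2-fold in clusters 2, 4 and 6, at 36.1 and 14.5 CPM in cluster 6. Of the inactive rhomboid genes, whose products carry the *Adam17* protease to the surface, *Rhbdf1* was below 0 in 10 of 12 clusters and within 2-fold in each, and *Rhbdf2* was above 0 in 8 of 12 (10 by TMM) and passed 2-fold in clusters 0 and 10, at 4.78 and 10.8 and at 4.55 and 9.26 CPM.

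**Figure D5:**
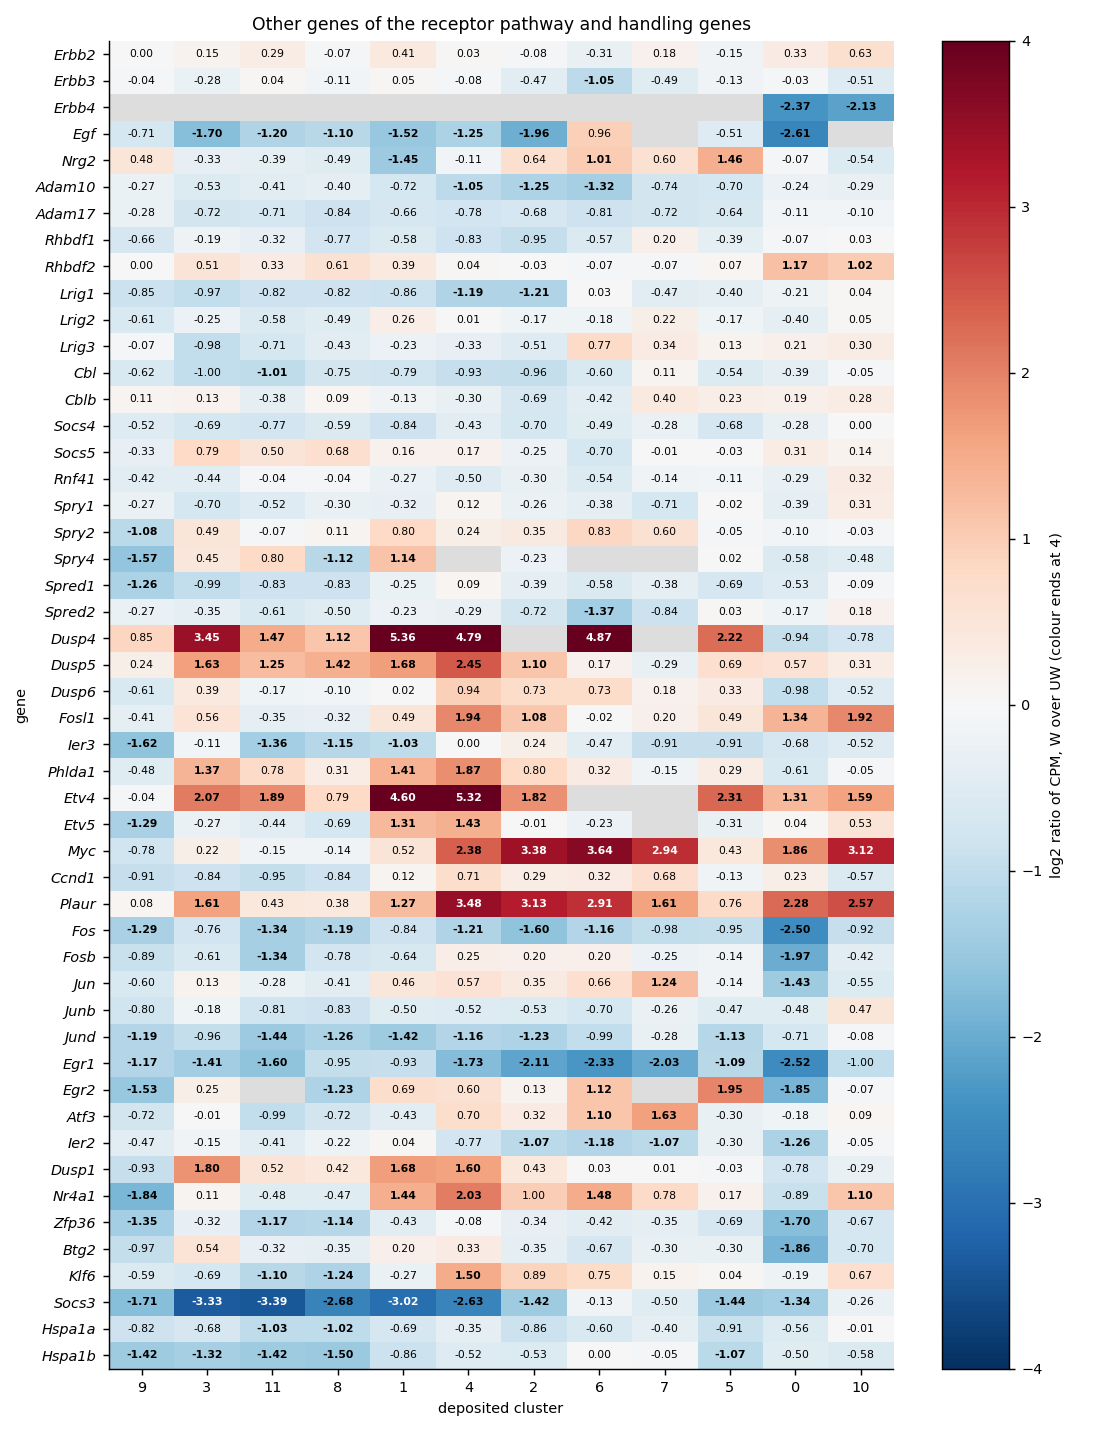
Log2 ratio of CPM, W over UW, for the other genes of the pathway and, from *Fos* down, the 17 immediate early and handling genes (rows) in the 12 clusters compared (columns); bold marks at least 2-fold and grey under 20 UMIs over both libraries, where no ratio is given. *Plaur* is above 0 in each of the 12 columns, and *Fos* and *Egr1* are below 0 in each.

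Genes that respond within minutes to tissue dissociation were read beside the members. Of the 202 pairs of 17 such genes, 13 (6.44%) were at least 2-fold higher and 57 (28.2%) lower in W, against 12.7% and 9.8% of all pairs. *Fos* was below 0 in 12 of 12 clusters under each scaling, with 1560 and 923 CPM in basal-like cluster 3 and 3377 and 597 in cluster 0, and *Egr1* stood at 259 and 97.8 in cluster 3. *Socs3* was below 0 in 12 of 12 clusters and lower past 2-fold in 9. *Dusp1* went the other way in clusters 1, 3 and 4, at 475 and 1656 CPM in cluster 3. *Nr4a1* was higher past 2-fold in 4 clusters and lower in 1, and *Atf3* was higher in 2 and lower in 0. *Egr2* was higher in 2 and lower in 3, *Jun* higher in 1 and lower in 1, and *Klf6* higher in 1 and lower in 2. The part of these 17 genes in the values of the 9 members was not tested, and the wound, the mice of a pool and the preparation of the libraries cannot be told apart here.

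Across the 28 sums of a cluster and a library with at least 50 cells, the profile of each member on the log2(CPM + 1) scale was compared with those of 9593 other genes. *Areg* lay closest to *S100a3* (Pearson r = 0.94), *Ndufa4* and *Tmem183a*, *Hbegf* to *Emp1* (0.95), *Tmc4* and *Kazn*, and *Ereg* to *Enpp3* (0.90), *Atp13a4* and *Elf5*. *Nrg1* lay closest to *Itgb4* (0.96), *Shmt1* and *Spon2*, *Btc* to *Scnn1a* (0.95), *Sc5d* and *Smim5*, and *Epgn* to *Serpinb5* (0.94), *Nectin1* and *Ifi202b*. The nearest genes of *Tgfa* were *S100a14* (0.93), *Serinc2* and *Tmem40*, those of *Egfr* were *Rasal2* (0.94), *Cxadr* and *Ptpn13*, and those of *Errfi1* were *Plekhg6* (0.91), *Apol7a* and *Proser2*. These sums share libraries and cell types, so the correlations are a description of where the genes are read.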

How the data were processed

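The raw UMI counts per gene and cell were the authors' deposited table, made with Cell Ranger 3.1.0, with the deposited cluster numbers beside it. The study's methods name the mm10 genome and the V2 kit, and the labels name mm9 and v3. The authors set limits of 500 and 8000 genes and of 10% mitochondrial UMIs per cell, required 5 cells per gene, took out doublets and cells with a signature of dissociation, and clustered with Seurat on 15 components at resolution 0.4. Corneas had been held in dispase for 18 h at 4 °C, after which the epithelium was digested with trypsin and the rest of the tissue with collagenase (1 h at 37 °C).

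Counts were summed here per cluster and library (Python 3.11.15, numpy 2.4.6, scipy 1.17.1, pandas 2.3.3, matplotlib 3.10.9) and divided by all UMIs of the sum to give CPM with exact Poisson 95% intervals. The log2 ratio of W over UW has an exact conditional interval, and shares of cells have Clopper-Pearson intervals. A ratio needed 20 UMIs over both libraries and 50 cells in each, and at least 2-fold was counted as higher or lower. With 1 library per condition no test was run. Levels were compared within a gene and not between genes, since 3′ UMI counts are not scaled to length. Cells were thinned to 5000 UMIs (seed 1) for shares. No doublet caller was run. Alternatives were scaling by TMM in edgeR 4.0.16 or by median-of-ratios in DESeq2 1.42.0 (R 4.3.3, for the factors only), the mean of each cell's own CPM, a stricter filter on cells (at least 1000 genes, at most 5% mitochondrial), other thresholds, weights and thinning depths, and leaving out doublets of the authors' first run. The ratio and its interval were tested on simulated data.

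The members, the pathway and marker lists and the thresholds were chosen with earlier results of these data known. Every member was named with its values, the other pathway genes by list, and 3 genes of most similar profile per member among those reaching 20 CPM in a sum.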

Additional observations from a re-analysis of the deposited data

Results flagged for a closer look

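*Ereg* was the one member whose ratio passed 2-fold in opposite directions in different clusters. Its log2 ratio of W over UW was -1.48 in suprabasal-like cluster 4 and -1.38 in the *Lce3a* cluster 7. It was 1.30 in basal-like cluster 3, 1.26 in mitotic-like cluster 8, 1.08 in S phase-like cluster 11 and 1.42 in limbal-like cluster 9. Clusters 3, 8 and 11 fell under 2-fold by the mean of each cell's own CPM. Their UW levels, at 4.10%, 7.08% and 4.65% of the pooled epithelial level, were no higher than free RNA. In the stromal-like cluster 0 and the unnamed cluster 10 the log2 ratio was 1.38 and 1.86. With 1 library per condition, the difference between the clusters was not tested.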

How the results depend on the processing

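No paired analysis was possible because there was 1 library per condition. The 33 higher and 10 lower pairs of a member and a cluster held under each alternative in direction, and at 1.5-fold 43 pairs were higher and 17 lower. Pairs crossing 2-fold were *Btc* and *Errfi1* in cluster 1 with TMM and median-of-ratios factors, and *Ereg* in 2, 3, 8 and 11, *Epgn* in 9, *Btc* in 1, *Nrg1* in 10 and *Errfi1* in 4 with the mean of each cell's own CPM. With the stricter filter on cells they were *Nrg1* in 0, 5 and 10, *Egfr* in 11 and *Errfi1* in 1, and there were none without the doublets of the first run or with a minimum of 1 UMI. Signs turned in 11 of 107 pairs with TMM, 10 with median-of-ratios, 9 with the mean of each cell's own CPM, 5 with the stricter filter and 3 without doublets, each under 2-fold. The ratio left its counting interval in 32 of 107 pairs with TMM, 32 with median-of-ratios, 30 with the mean of each cell's own CPM and 17 with the stricter filter. The largest shift was 1.15 with the mean of each cell's own CPM (*Btc* in cluster 8, from 0.56 to -0.59) and 1.09 with the stricter filter.

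The epithelial log2 ratio depended on the weights. With W shares, equal shares and the mean of each cell's own CPM, *Areg* stood at 1.89, 2.07 and 2.30, *Epgn* at 0.68, 0.56 and 0.62, *Btc* at -1.13, -1.25 and -1.45 and *Errfi1* at 0.28, 0.25 and 0.48. With W and equal shares, *Ereg* stood at -0.25 and -0.40, *Nrg1* at 0.091 and 0.13 and *Egfr* at -0.76 and -0.71. *Hbegf* gave -0.39 with equal shares and -0.34 with the mean of each cell's own CPM, and *Tgfa* 0.62 with W shares. The share of epithelial cells with at least 2 ligand genes was 38.8% in UW and 49.0% in W at 3000 UMIs, and 87.9% and 94.6% without thinning. The causes of these shifts were not tested. Sums of a few UMIs (*Btc* in cluster 10) and the 0 to 7 UW cells of clusters 13 to 17 limit what can be compared there.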
